A study of Mus musculus with 4 samples.

Results

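Retnlg-rich neutrophils without the F3 programme were 1300 of the 19126 cell barcodes in the deposited matrices of lung CD45+ cells, 937 of 10102 in the Plaur KO library and 363 of 9024 in the WT library. A barcode was a member when it had a UMI (unique molecular identifier, standing for 1 captured RNA molecule) in 200 or more genes and no more than 10% of its UMIs from mitochondrial genes, when S100a8 plus S100a9 made up at least 2% of its gene UMIs, and when Cd79a, Cd3e and C1qa were all at 0. It also held fewer than 3 UMIs of the 5 interferon genes Ifit1, Ifit2, Ifit3, Ifit3b and Rsad2, no UMI of F3, Hcar2, Egln3 or Rnd1, and at least 5 UMIs of Retnlg. The members were thus chosen on measured RNA, and the levels of these genes in them are a description of that choice. The study compared Plaur KO mice, which carry a knockout of the gene for the urokinase receptor uPAR, with WT C57B6/J mice, 8 of each genotype in the design. All mice of both genotypes were sensitised with LPS and ovalbumin (OVA) on days 0 and 7 and challenged with OVA aerosol on day 14. Lungs were digested, CD45.2+ leukocytes were sorted, and gene RNA was read together with 5 TotalSeq-A antibodies, which carry a DNA tag that is counted like an RNA. The labels give neither the ages, the sexes and the time from challenge to harvest nor how many of the mice entered each library.

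Each genotype was 1 library, so differences between genotypes have no replicate check. Intervals in brackets are exact 95% intervals that cover counting error only, and no p-value was computed. Plaur itself, the targeted gene, was read at 1076 CPM (counts per 1000000 gene UMIs of the class) in members of the Plaur KO library and 1606 CPM in members of the WT library, with a UMI in 80.8% and 80.2% of these cells. The 3′ tag reads do not say whether the transcript was intact, so this value does not check the genotype label. 16 barcodes were shared between the libraries, 1 of which was a Plaur KO member and none a WT member.

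Neutrophils are short-lived phagocytes that leave the marrow with ready-made granules and enter inflamed lung. Their granule proteins are made in waves during maturation, so that transcripts of secondary and gelatinase granules mark younger cells and fade as the cell ages in tissue. Retnlg encodes a resistin-like protein made by mouse neutrophils, Mmp9 a gelatinase, Il1r2 the decoy receptor for interleukin-1, and Csf3r the receptor for G-CSF, the main neutrophil growth factor.

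The members made up 9.33% [8.77, 9.92] of the quality-filtered barcodes in the Plaur KO library and 4.06% [3.66, 4.49] in the WT library, a ratio of 2.30 [2.03, 2.60]. Among neutrophils as gated by S100a8, S100a9 and the absent lineage genes, they were 27.0% of 3474 cells in the Plaur KO library and 16.7% of 2171 cells in the WT library, a ratio of 1.61 [1.43, 1.83]. The other neutrophils of the gate fell into an interferon-high class (548 Plaur KO and 133 WT cells), an F3-programme class with at least 1 UMI of F3, Hcar2, Egln3 or Rnd1 (1665 Plaur KO and 1384 WT cells) and a Retnlg-low class with 0 to 4 Retnlg UMIs (324 Plaur KO and 291 WT cells). Among the cells without F3-programme genes and without the interferon signal, 74.3% were Retnlg-rich in the Plaur KO library and 55.5% in the WT library. Retnlg also differed outside these cells. Its median was 15 UMIs in Plaur KO and 7 in WT F3-programme cells, and 38 in Plaur KO and 13 in WT interferon-high cells. How far this higher Retnlg set the members' share was not tested. Depth was similar, with a median of 1845 UMIs and 814 genes in Plaur KO members and 1736 UMIs and 799 genes in WT members. With every cell thinned to 1000 UMIs before the rule was applied, which also removes many UMIs of F3-programme genes, members were 37.6% of the gate in the Plaur KO library and 18.9% in the WT library; 27 Plaur KO members and 13 WT members were too shallow to enter.

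**Figure D1:**
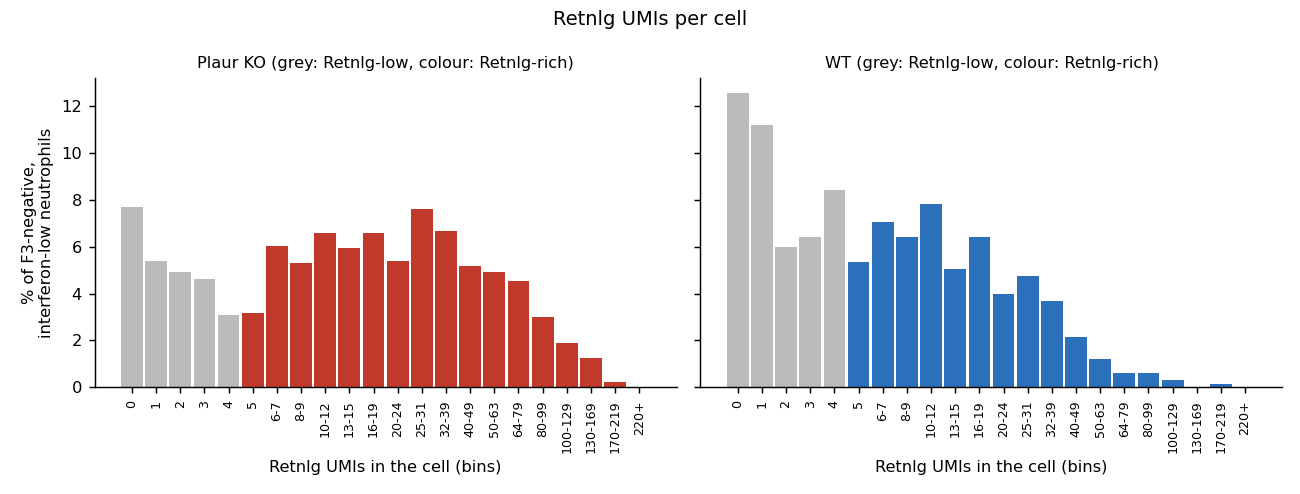
Share of cells (y axis, % of the neutrophils with no F3-programme UMI and under 3 interferon UMIs) by the number of Retnlg UMIs in the cell (x axis, bins of unequal width), with the Plaur KO library on the left and the WT library on the right; grey bars are Retnlg-low cells and coloured bars members. The Plaur KO cells extend further to high values, with a median of 22 Retnlg UMIs in Plaur KO members and 13 in WT members, and neither library shows a gap at the limit of 5 UMIs.

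The Retnlg limit cut through a continuous range. Just inside it, at 5 UMIs, were 40 Plaur KO and 35 WT cells; just outside, at 4 UMIs, were 39 Plaur KO and 55 WT cells. The Retnlg in the label is set by the rule. Of the other 3 markers in the label, Mmp9 was at 1220 CPM in Plaur KO members and 1303 CPM in WT members, Il1r2 at 2774 CPM in Plaur KO members and 3596 CPM in WT members, and Csf3r at 2328 CPM in Plaur KO members and 2722 CPM in WT members. Each was found in 87.4% to 99.0% of members, against 2.22% to 5.44% of B cells, which should lack them and had a median depth of 2253 UMIs in the Plaur KO library and 2460 UMIs in the WT library. These 3 genes thus set the members apart from B cells, while their levels in monocytes and macrophages were not compared. They did not set the members apart from Retnlg-low neutrophils, where Mmp9 was at 1161 CPM in the Plaur KO library and 1100 CPM in the WT library. In these Retnlg-low cells Il1r2 was at 3592 CPM in the Plaur KO library and 3749 CPM in the WT library, and Csf3r at 3033 CPM in the Plaur KO library and 2953 CPM in the WT library. Cd79a, Cd3e and C1qa were at 0 by the rule. Of 14 eosinophil, basophil and mast cell markers, 12 had no UMI in any member.

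Some member barcodes also carried RNA of another cell type, unevenly between the libraries. At least 3 UMIs of 8 classical monocyte genes (Ly6c2, Ccr2, F13a1, Ms4a4c, Csf1r, Fn1, Vcan and Ms4a6c) were present in 86 of 937 Plaur KO members, 9.18% [7.41, 11.2], and in 13 of 363 WT members, 3.58% [1.92, 6.05]. Their median depth was 6880 UMIs in the Plaur KO library and 7203 UMIs in the WT library, against 1772 and 1714 UMIs in the remaining members of the same libraries. The doublet caller Scrublet called 11 of these 86 Plaur KO barcodes and 4 of these 13 WT barcodes. Among all genes with at least 20 UMIs, 6.04% were at least 2-fold higher in Plaur KO members. The marker list of monocytes had 8 of 14 genes at least 2-fold higher in Plaur KO members, with a median log2 ratio of 1.88. The 8 genes that pick out the barcodes belong to this list, so its fall to -0.14 over the 6 genes still measured without them follows from the choice. The other 6 genes of the list had a median of 0.13 over all members and, over the 4 still measured, -0.28 without these barcodes. Among them Plac8, a cysteine-rich gene of monocytes and other myeloid cells, was at 685 CPM in Plaur KO members and 119 CPM in WT members, and without these barcodes at 72.3 CPM in Plaur KO members and 22.3 CPM in WT members. Of 14 measured macrophage markers, 8 were higher in Plaur KO members, with a median of 0.17. This was near the 52.6% higher among all genes with at least 20 UMIs. Apoe, a lipoprotein gene of macrophages picked out after its value was seen, was at 14.0 CPM in Plaur KO members and 302 CPM in WT members, and 5 cells held 146 of its 231 WT UMIs. Without the barcodes that hold monocyte genes it was at 4.74 CPM in Plaur KO members and 126 CPM in WT members. The gap was not particular to the members. In the Plaur KO and WT libraries Apoe was at 27.1 and 445 CPM in Retnlg-low cells and at 12.3 and 311 CPM in F3-programme cells. At least 3 UMIs of macrophage genes were present in 15 Plaur KO members, 1.60%, and in 20 WT members, 5.51%. Ratios between genotypes are therefore given below for all members and, where it matters, without the barcodes that hold monocyte genes.

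With barcodes that hold monocyte genes kept, the members had more RNA of secondary granule genes than Retnlg-low cells of the same library. They had less of the lists of aged and tissue neutrophils, NF-kB and cytokine genes and immediate early genes. MHC class II genes were at least 2-fold higher in members only as long as barcodes with monocyte genes were kept. The class boundary was cut on Retnlg, so this is a description of what goes along with it. At 100 or more UMIs in each library, 6 of 1823 genes (0.329%) were at least 2-fold higher in members of both libraries and 3 (0.165%) at least 2-fold lower. Of the 6, 4 were MHC class II genes of antigen-presenting cells (H2-Aa, H2-Ab1, H2-Eb1 and Cd74), which the rule for named genes leaves out as markers of other cells. Cd74, the invariant chain, was at 569 CPM in Plaur KO members and 175 CPM in Plaur KO Retnlg-low cells, and at 614 CPM in WT members and 184 CPM in WT Retnlg-low cells. Without the barcodes that hold monocyte genes, Cd74 was instead at 46.2 CPM in Plaur KO members and 115 CPM in Plaur KO Retnlg-low cells, and at 72.9 CPM in WT members and 102 CPM in WT Retnlg-low cells. The other 2 of the 6 were Stx11 and Lcn2, which stayed above 2-fold in both libraries without these barcodes. Stx11, a syntaxin of the secretory machinery, was at 255 CPM in Plaur KO members and 115 CPM in Plaur KO Retnlg-low cells, and at 214 CPM in WT members and 99.0 CPM in WT Retnlg-low cells. Lcn2, which encodes the iron-siderophore binding protein of secondary granules, was at 899 CPM in Plaur KO members and 402 CPM in Plaur KO Retnlg-low cells, and at 891 CPM in WT members and 436 CPM in WT Retnlg-low cells. Wfdc21, a whey acidic protein family member, and Mmp8, neutrophil collagenase, had log2 ratios of 1.39 and 1.23 in the Plaur KO library and 0.95 and 0.83 in the WT library. Ly6g, the surface antigen that defines mouse neutrophils, had 1.87 [0.96, 2.96] in the Plaur KO library and 1.32 [0.10, 2.75] in the WT library. Its Retnlg-low levels rest on 10 Plaur KO and 7 WT UMIs. With 30 UMIs in WT members, Ly6g was below the limit of 100 UMIs in the WT library. All of these ratios pointed the same way in both libraries.

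The list of immature neutrophil and secondary granule genes had 15 of 18 measured members higher in Retnlg-rich cells of both libraries and none lower in both, with medians of 1.00 in the Plaur KO library and 0.51 in the WT library, against -0.08 and -0.07 over all genes. Over all 4974 genes measured, 21.9% were higher and 36.4% lower in members of both libraries. The lists were not compared between these classes again without the barcodes that hold monocyte genes. Such barcodes were 9.18% of members and 3.09% of Retnlg-low cells in the Plaur KO library. In the WT library they were 3.58% of members and 3.44% of Retnlg-low cells. Gelatinase granule and secretory vesicle genes were split evenly, 7 of 17 in each direction. In the other direction, 20 of 26 genes of aged and tissue neutrophils, 28 of 35 NF-kB and cytokine genes and 26 of 32 immediate early genes were lower in members of both libraries. Clec4n, the gene of the fungal receptor Dectin-2, had log2 ratios of -2.09 in the Plaur KO library and -1.69 in the WT library. Ccl3, a macrophage and neutrophil attracting chemokine, had -1.48 and -1.01, and Cxcr4, the receptor that returns ageing neutrophils to marrow, had -0.61 and -0.46. Ier3, an early stress gene, had -1.10 and -0.86, and Xbp1, the transcription factor of the unfolded protein response, had -0.84 and -1.09 in the Plaur KO and WT libraries. All 20 genes named by the rule for this comparison kept their direction in both libraries without the barcodes that hold monocyte genes.

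Some levels also moved with Retnlg within the members themselves. Cells were split into those with 5 to 9 Retnlg UMIs (183 Plaur KO and 123 WT cells), 10 to 19 (241 and 126) and 20 or more (513 and 114), so the Plaur KO members were weighted towards the upper range. Over these 3 ranges, from low to high, Lcn2 was at 454, 605 and 1111 CPM in Plaur KO members and at 731, 757 and 1152 CPM in WT members. Mmp8 was at 333, 402 and 732 CPM in Plaur KO members and at 287, 299 and 634 CPM in WT members. Ly6g was at 31.8, 45.9 and 98.0 CPM in Plaur KO members and at 23.1, 29.1 and 62.0 CPM in WT members, where it rests on 5, 8 and 17 UMIs. All 3 were highest in the cells richest in Retnlg. Il1b, which encodes interleukin-1 beta, was at 13440, 9579 and 8409 CPM in Plaur KO members and at 15064, 13004 and 11731 CPM in WT members. Cxcr4 was at 632, 566 and 467 CPM in Plaur KO members and at 915, 699 and 532 CPM in WT members. Both were lowest in the cells richest in Retnlg. Median depth rose over the ranges, at 1566, 1667 and 2068 UMIs in Plaur KO members and 1520, 1699.5 and 2007.5 UMIs in WT members. Plaur KO members with monocyte genes had a median of 39.5 Retnlg UMIs, against 22 in the remaining Plaur KO members. In the WT library these medians were 14 and 13. The gene levels by range include these barcodes, and the part of depth and of these barcodes was not tested.

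**Figure D2:**
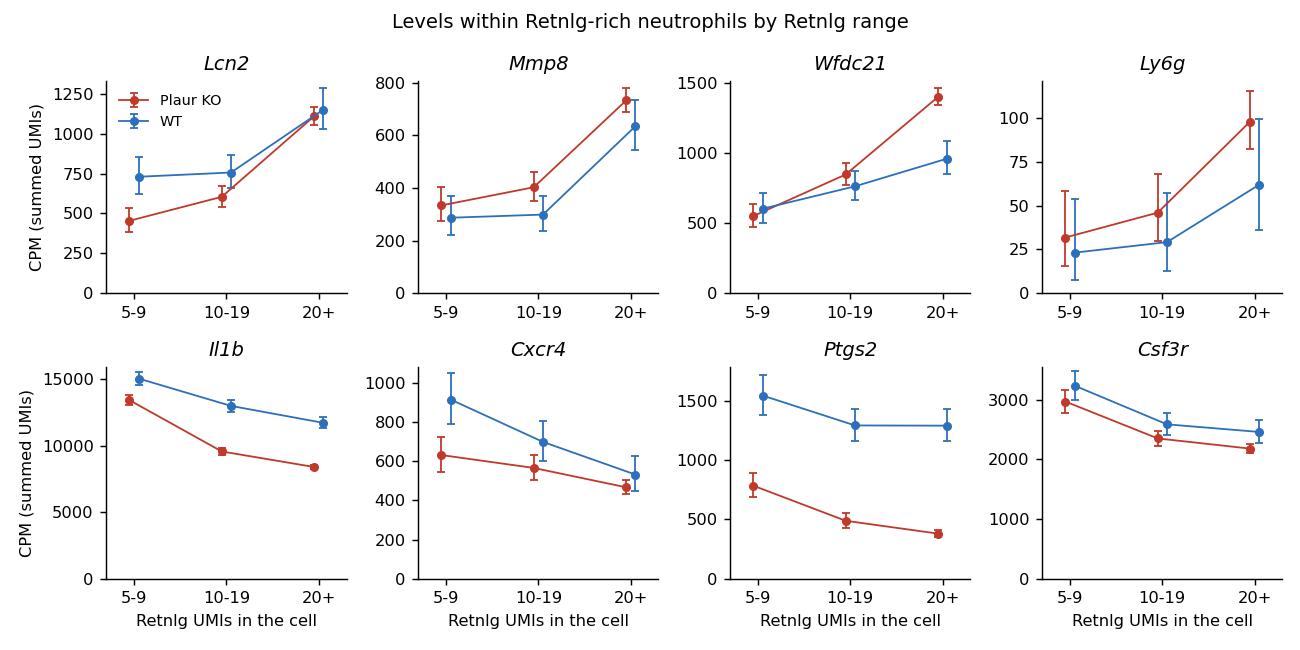
CPM of summed UMIs (y axis, from 0) of 8 genes in members with 5 to 9, 10 to 19 and 20 or more Retnlg UMIs (x axis), Plaur KO in red and WT in blue; bars are 95% Poisson intervals, counting error only. Lcn2, Mmp8, Wfdc21 and Ly6g are highest and Il1b, Cxcr4 and Csf3r lowest in the top range of both libraries, while Ptgs2 is lower in Plaur KO members in every range.

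Against F3-programme neutrophils, most of the genes that differed were lower in the members. Of 4655 genes, 1 (0.0215%) was at least 2-fold higher in members of both libraries and 71 (1.53%) were at least 2-fold lower. Il1a, the gene of interleukin-1 alpha, was at 11.9 CPM in Plaur KO members and 63.9 CPM in Plaur KO F3-programme cells, and at 17.0 CPM in WT members and 105 CPM in WT F3-programme cells. Cxcl10, a T cell attracting chemokine that interferons induce, was at 61.0 CPM in Plaur KO members and 304 CPM in Plaur KO F3-programme cells, and at 99.3 CPM in WT members and 617 CPM in WT F3-programme cells. Gbp5 and Gbp2, interferon-induced GTPases, had log2 ratios of -2.39 and -2.19 in the Plaur KO library and -3.94 and -2.81 in the WT library. Cish and Socs1, feedback inhibitors of cytokine signalling, had -1.99 and -2.10 in the Plaur KO library and -2.19 and -1.84 in the WT library. Cd274, which encodes PD-L1, had -1.81 in the Plaur KO library and -1.94 in the WT library. Some of these genes respond to interferon, and both classes had been cut at under 3 UMIs of the interferon genes. Mmp9 was higher in members, with log2 ratios of 0.53 in the Plaur KO library and 0.56 in the WT library, and Il1r2 likewise with 0.35 and 0.39. The highest gene was Asb7, which encodes an ankyrin and SOCS box protein, with 1.07 and 1.10, followed by 9830107B12Rik with 0.96 and 1.07 and Bmx, a cytoplasmic tyrosine kinase, with 0.91 and 0.98 in the Plaur KO and WT libraries. Monocyte markers were also lower in members, in both libraries for 11 of 14 genes, with medians of -0.70 in the Plaur KO library and -1.16 in the WT library. Over all 8330 genes measured for this comparison, 26% were higher and 40% lower in members of both libraries. Barcodes that hold monocyte genes were 9.18% of members and 14.7% of F3-programme cells in the Plaur KO library, and 3.58% of members and 9.54% of F3-programme cells in the WT library. Without them, all 20 genes named for this comparison kept their direction in both libraries.

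Surface CD11b, the integrin alpha M chain, was read by an antibody that the rule did not use. Its count rests on the DNA tag of the antibody, and so does that of Ly-6C, the surface antigen carried at high level by classical monocytes; both tags are shown whole in capitals because they are what was counted.
CD11b tag: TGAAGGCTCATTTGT
Ly-6C tag: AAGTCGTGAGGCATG
CD11b averaged 97.6 tag UMIs per cell in Plaur KO members and 110 in WT members, with medians of 81 and 93. Retnlg-low cells were close to that, with means of 97.8 in the Plaur KO library and 109 in the WT library. F3-programme cells carried more, 163 in the Plaur KO library and 207 in the WT library, with medians of 117 and 152. The members' mean was 0.600-fold that of F3-programme cells in the Plaur KO library and 0.530-fold in the WT library, and 0.671-fold and 0.593-fold without the barcodes that hold monocyte genes in both classes. B cells, the background, averaged 11.5 in the Plaur KO library and 11.6 in the WT library. Relative to all gene UMIs, Itgam, the gene of CD11b, was closer between the classes. It was at 504 CPM in Plaur KO members and 494 CPM in WT members, against 481 CPM in Plaur KO F3-programme cells and 475 CPM in WT F3-programme cells. CPM and tag UMIs per cell are unlike scales, so these values do not compare RNA with surface level. Counted per class, Itgam had 1149 UMIs in 937 Plaur KO members and 3006 UMIs in 1665 Plaur KO F3-programme cells. In the WT library it had 378 UMIs in 363 members and 2137 UMIs in 1384 F3-programme cells. Per cell, Itgam was thus also lower in members. Median gene UMIs of the F3-programme cells were 2128 in the Plaur KO library and 2048 in the WT library, so depth moved with the antibody level and its part was not tested. The Retnlg-low cells, with CD11b as high as the members, had median depths of 1353.5 UMIs in the Plaur KO library and 1372 UMIs in the WT library, below those of the members.

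Ly-6C averaged 33.3 tag UMIs in Plaur KO members and 22.2 in WT members, a higher count in Plaur KO members. B cells of the same libraries had 20.7 and 10.9, so the background differed in the same direction, and relative to B cells the log2 ratio of Plaur KO over WT members was -0.34. The direction of the Ly-6C comparison between genotypes thus depends on the scale. CD14, CCR3 and ST2, which is the interleukin-33 receptor, averaged 2.97, 1.02 and 0.915 tag UMIs in Plaur KO members and 3.14, 1.26 and 0.716 in WT members, close to the 2.50, 1.07 and 0.897 of Plaur KO B cells and the 3.02, 1.11 and 0.764 of WT B cells.

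**Figure D3:**
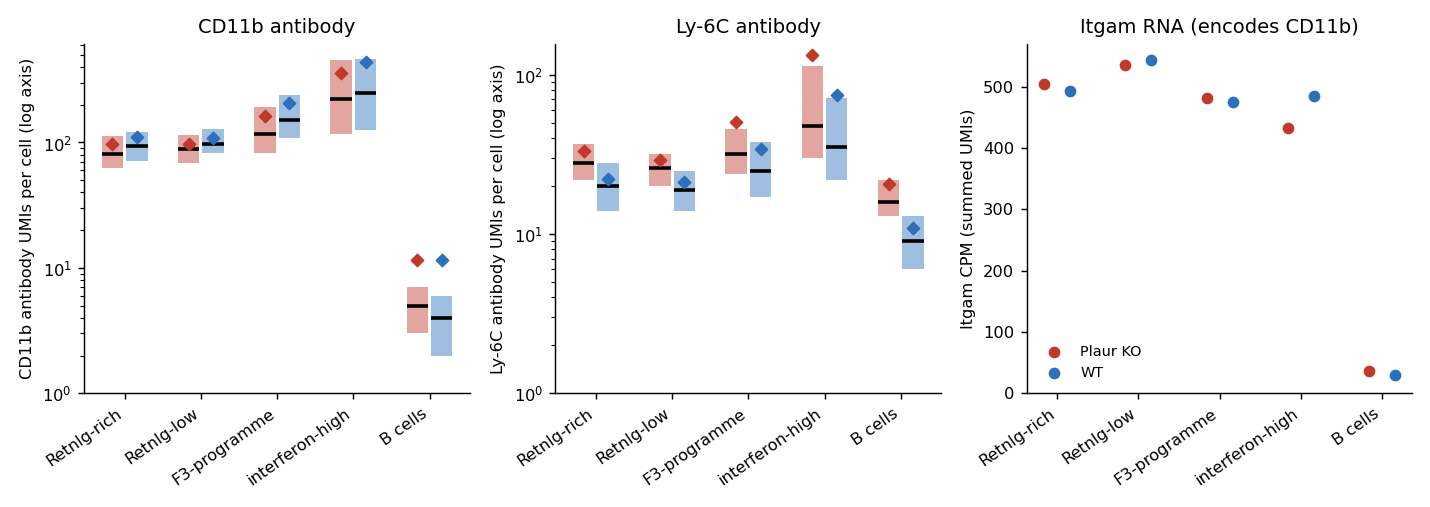
Antibody tag UMIs per cell for CD11b (left) and Ly-6C (middle) on a log axis and Itgam RNA in CPM (right, from 0) in 4 neutrophil classes and B cells, Plaur KO in red to the left of WT in blue; boxes span the quartiles, black lines are medians and diamonds means. CD11b means of 97.6 in Plaur KO and 110 in WT members lie below those of F3-programme cells. Itgam CPM in members lies close to that in F3-programme cells, but CPM is relative to gene UMIs and the antibody counts are per cell.

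Between genotypes, 3430 genes outside the rule had at least 100 UMIs over both libraries in the members. Of these, 63 (1.84%) were at least 2-fold higher in Plaur KO members and 24 (0.7%) at least 2-fold lower, and the median log2 ratio of Plaur KO over WT was 0.01. Without the barcodes that hold monocyte genes, 24 of 2758 genes (0.87%) were at least 2-fold higher and 22 (0.798%) lower, of which 15 and 13 were among those called over all members. Without these barcodes the counts in the 2 directions were thus close to each other. Plcb1, a phospholipase, Irf8 and Bst2, myeloid and interferon-linked genes, Crip1 and S100a10 had log2 ratios of 1.59 to 3.72 over all members, and their intervals held 0 without those barcodes.

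Of the genes that stayed at least 2-fold higher in Plaur KO members either way, Hprt, which encodes a purine salvage enzyme, was at 671 CPM in Plaur KO members and 45.7 CPM in WT members, a log2 ratio of 3.87 [3.39, 4.40]. It was found in 74.0% of Plaur KO members and 7.99% of WT members. Hprt had log2 ratios of 4.30 in Retnlg-low and 3.63 in F3-programme cells, so it was not particular to the members. It lies on chromosome X. The labels do not give the sexes of the mice, and no source of this difference was tested. Irgc1, an immunity-related GTPase family gene, was at 63.7 CPM in Plaur KO members and 7.84 CPM in WT members. Its WT level rests on 6 UMIs. Wfdc17, a whey acidic protein family gene of activated myeloid cells, was at 2005 CPM in Plaur KO members and 788 CPM in WT members, a log2 ratio of 1.35 [1.22, 1.47], and had 1.64 without the barcodes that hold monocyte genes. It was found in 68.0% of Plaur KO members and 40.2% of WT members. Slfn5, an interferon-induced Schlafen gene, was at 202 CPM in Plaur KO members and 53.6 CPM in WT members, a log2 ratio of 1.91 [1.45, 2.41]. Cstdc5, a stefin-type protease inhibitor gene, was at 64.5 CPM in Plaur KO members and 15.7 CPM in WT members, and Eps8, an actin regulator, at 65.9 CPM in Plaur KO members and 14.4 CPM in WT members. For Cstdc5, 5 cells held 44.9% of the Plaur KO UMIs and all 12 WT UMIs. The WT level of Eps8 rests on 11 UMIs.

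**Figure D4:**
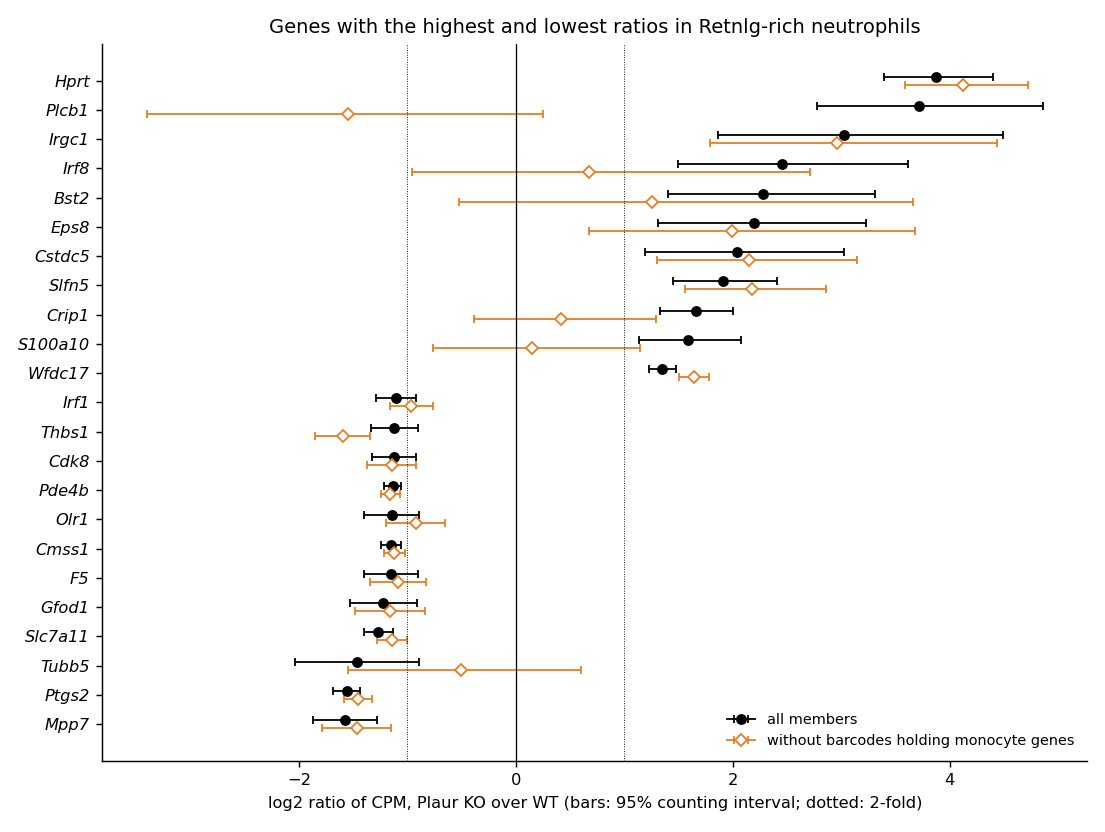
Log2 ratio of CPM, Plaur KO over WT (x axis), of the highest and lowest named genes in members, for all members (black) and without the barcodes that hold monocyte genes (orange); bars are 95% counting intervals and dotted lines mark 2-fold. Hprt, Irgc1, Slfn5, Eps8, Cstdc5 and Wfdc17 stay above 1 either way, whereas Plcb1 moves to -1.55.

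Type I interferon genes were higher as a list in Plaur KO members, although the rule had capped the 5 interferon genes in every member of both libraries. Outside the rule, 41 of 46 measured genes of this list were higher in Plaur KO members and 6 at least 2-fold, with a median log2 ratio of 0.67; over all 7114 genes with at least 20 UMIs, 52.6% were higher, 6.04% at least 2-fold, and the median was 0.02. Without the barcodes that hold monocyte genes, 38 of 41 were higher and the median was again 0.67. Of all 5858 genes measured without these barcodes, 2693 were higher, with a median of -0.04. The summed level of the list was 12335, 9904 and 9696 CPM in Plaur KO members with 5 to 9, 10 to 19 and 20 or more Retnlg UMIs, and 6991, 6990 and 6521 CPM in WT members of the same ranges. It was thus higher in Plaur KO members in each Retnlg range. Ifi27l2a, an interferon-induced mitochondrial protein gene, had a log2 ratio of 0.95, and Isg15, the ubiquitin-like modifier, had 0.51; without the barcodes that hold monocyte genes they had 0.89 and 0.45. Ifitm3, which blocks entry of viruses from endosomes, had 1.03 and 0.55. These 3 were picked after their values were seen, for their high level. Cxcl10 was the exception with the lowest ratio, at 61.0 CPM in Plaur KO members and 99.3 CPM in WT members, and Parp9 and Ifi35 had -0.17 and -0.07. The list was lower in Retnlg-rich than in Retnlg-low cells, in both libraries for 25 of 38 genes.

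The interferon-stimulated response element, the DNA motif bound by the interferon-activated factor ISGF3, was searched for as GAAANNGAAA on both strands in RefSeq promoters of 300 bases (GRCm38.p6; 250 bases before to 50 after the start). It was present for 20 of the 38 list genes with a promoter in the table, 52.6%, and for 3.99% of all 27025 genes there. The promoters of Ifitm3, Slfn5 and Isg15 are shown with the matches in capitals. They were picked because these genes were higher in Plaur KO members and their promoters held a match. Other list genes that were higher in Plaur KO members, such as Ifitm1, Oasl2 and Irf7, had no match. A match is only a run of letters and not a measured binding site.
Ifitm3 promoter, chr7:141010695-141010994, minus strand: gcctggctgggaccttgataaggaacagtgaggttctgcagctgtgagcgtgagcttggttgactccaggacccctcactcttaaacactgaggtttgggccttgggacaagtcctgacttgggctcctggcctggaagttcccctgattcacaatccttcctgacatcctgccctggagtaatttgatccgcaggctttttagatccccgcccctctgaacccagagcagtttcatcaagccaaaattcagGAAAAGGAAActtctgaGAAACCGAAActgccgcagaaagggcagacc
Slfn5 promoter, chr11:82951852-82952151, plus strand: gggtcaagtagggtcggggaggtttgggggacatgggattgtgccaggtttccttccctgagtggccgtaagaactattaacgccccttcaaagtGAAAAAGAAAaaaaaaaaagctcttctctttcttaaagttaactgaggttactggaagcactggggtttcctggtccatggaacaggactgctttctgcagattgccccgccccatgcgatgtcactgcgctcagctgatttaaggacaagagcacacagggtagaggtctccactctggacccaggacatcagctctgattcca
Isg15 promoter, chr4:156200769-156201068, minus strand: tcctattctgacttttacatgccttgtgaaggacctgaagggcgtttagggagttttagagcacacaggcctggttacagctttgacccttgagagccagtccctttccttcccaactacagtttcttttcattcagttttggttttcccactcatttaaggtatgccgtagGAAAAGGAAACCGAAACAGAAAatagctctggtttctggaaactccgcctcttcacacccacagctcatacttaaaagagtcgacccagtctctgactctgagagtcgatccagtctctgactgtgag
Ifitm3 held 2 matches, Slfn5 held 1, and Isg15 held 3 that overlap into 1 block of capitals. No other difference in these promoters was examined.

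NF-kB and cytokine genes went the other way. Of 36 measured genes of that list, 29 were lower in Plaur KO members and 5 at least 2-fold lower, with a median log2 ratio of -0.53, against 47.4% lower and 2.74% at least 2-fold lower among all genes. Ptgs2, the inducible cyclooxygenase that starts prostaglandin synthesis, was at 462 CPM in Plaur KO members and 1363 CPM in WT members, a log2 ratio of -1.56 [-1.68, -1.43]. It was found in 44.3% of Plaur KO members and 71.3% of WT members. The difference in Ptgs2 was not particular to the members. In the Plaur KO and WT libraries it was at 663 and 1421 CPM in Retnlg-low cells and at 382 and 1114 CPM in F3-programme cells. Il1b was at 9384 CPM in Plaur KO members and 13130 CPM in WT members, a log2 ratio of -0.48 [-0.52, -0.45]. Tnf, at 15.4 CPM in Plaur KO members and 34.0 CPM in WT members, and Bcl2a1d, a survival gene of the A1 family, at 19.8 CPM in Plaur KO members and 48.3 CPM in WT members, were both low in level. Ccl2, the monocyte attracting chemokine, was 1 of the 7 genes that were higher, at 47.9 CPM in Plaur KO members and 11.8 CPM in WT members. All 9 of its WT UMIs lay in 4 cells. Cxcl2, a far more abundant chemokine gene picked out after its value was seen, was another. It was at 4097 CPM in Plaur KO members and 3562 CPM in WT members, a log2 ratio of 0.20 [0.14, 0.26]. The list's median without the barcodes that hold monocyte genes was -0.55, against -0.04 over all genes. Its summed level was 30434, 22254 and 20323 CPM in Plaur KO members over the 3 Retnlg ranges from low to high, and 31783, 28789 and 27110 CPM in WT members.

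Immediate early genes and the genes that accompany the F3 programme were lower as well. Of 33 immediate early genes, 24 were lower in Plaur KO members, with a median log2 ratio of -0.36. Among all genes with at least 20 UMIs, 47.4% were lower. Nr4a1, an orphan nuclear receptor induced within minutes of a stimulus, was at 124 CPM in Plaur KO members and 298 CPM in WT members, and Ppp1r15a, a stress-response phosphatase subunit, at 176 CPM in Plaur KO members and 337 CPM in WT members. Jun, an AP-1 subunit, was an exception with 139 CPM in Plaur KO members and 84.9 CPM in WT members, and without the barcodes that hold monocyte genes its ratio of 0.32 had an interval that held 0. Of 16 genes chosen earlier as neighbours of the F3 programme, 13 were lower, with a median of -0.80, in cells that had no UMI of the 4 rule genes in either library; that list was drawn from these data and is no independent evidence of a direction. Slc7a11, the cystine importer, was at 455 CPM in Plaur KO members and 1096 CPM in WT members, a log2 ratio of -1.27 [-1.40, -1.14]. Pde4b, which degrades cyclic AMP, was at 1274 CPM in Plaur KO members and 2800.2 CPM in WT members, and Thbs1, the matrix protein thrombospondin-1, at 179 CPM in Plaur KO members and 388 CPM in WT members. Irf1, an interferon-gamma responsive transcription factor, was at 252 CPM in Plaur KO members and 541 CPM in WT members. Olr1, a scavenger receptor, was at 135 CPM in Plaur KO members and 298 CPM in WT members, and F5, coagulation factor V, at 142 CPM in Plaur KO members and 316 CPM in WT members. Mpp7, Cmss1, Cdk8 and Gfod1 had log2 ratios of -1.57, -1.15, -1.13 and -1.22. Tubb5, a tubulin, completed the lowest genes at 24.6 CPM in Plaur KO members and 67.9 CPM in WT members, a log2 ratio of -1.47 [-2.04, -0.89], and 5 cells held 42 of its 52 WT UMIs.

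**Figure D5:**
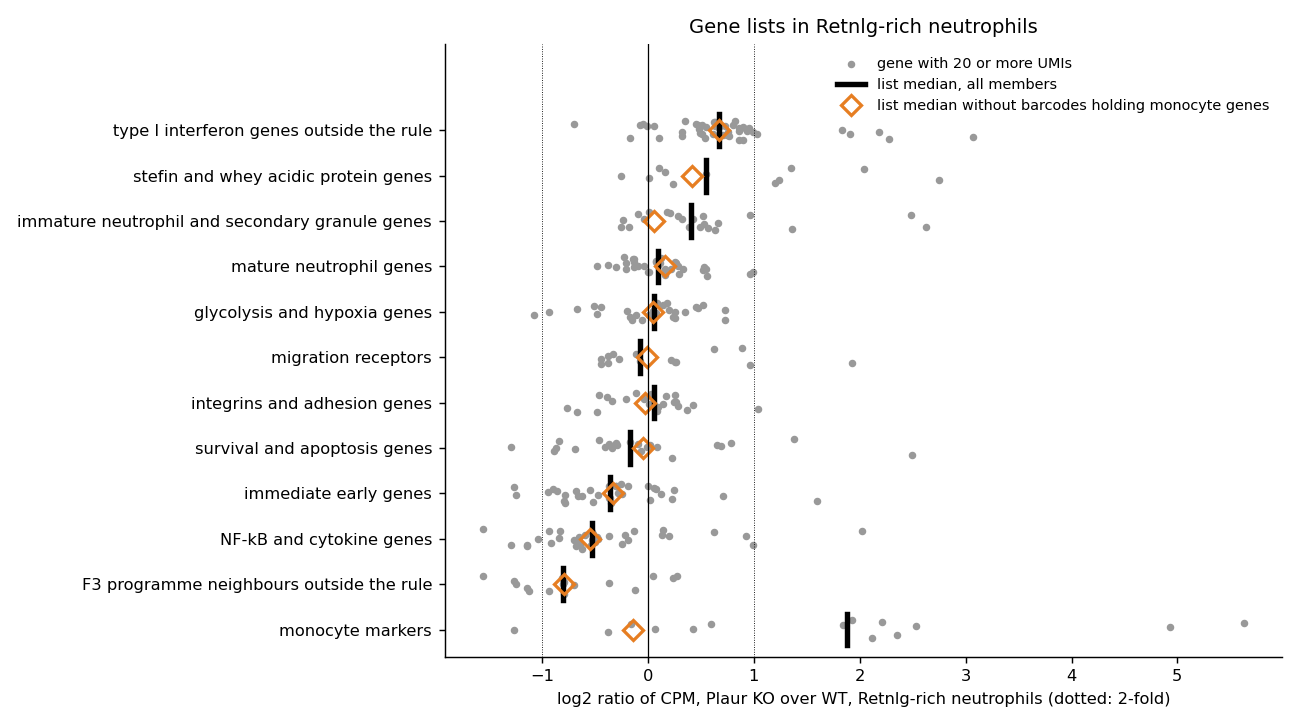
Log2 ratio of CPM, Plaur KO over WT (x axis), of every gene with at least 20 UMIs in 12 lists (rows; grey points, spread vertically at random), with the list median over all members (black bar) and without the barcodes that hold monocyte genes (orange diamond). The interferon list sits at 0.67 and the NF-kB list at -0.53 with little change, while the immature granule list moves to 0.06 and the monocyte markers, which hold the genes by which barcodes were left out, to -0.14.

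Granule genes between genotypes gave a mixed picture. Of 22 measured immature neutrophil and secondary granule genes, 17 were higher in Plaur KO members, with a median log2 ratio of 0.41. Among all genes with at least 20 UMIs, 52.6% were higher. Without the barcodes that hold monocyte genes, 13 of 20 list genes were higher, with a median of 0.06. Of all 5858 genes measured without these barcodes, 2693 were higher, with a median of -0.04. Ngp, neutrophilic granule protein, was at 87.4 CPM in Plaur KO members and 34.0 CPM in WT members, but 5 cells held 85.9% of its UMIs in Plaur KO members and 84.6% in WT members, and 1 Plaur KO cell alone held 137 UMIs. Ltf, the lactoferrin gene, had 48 of its 50 Plaur KO UMIs in 5 cells and only 3 WT UMIs. Serpinb1a, an inhibitor of neutrophil proteases, had 24.1 CPM in Plaur KO members and 3.92 CPM in WT members, and the WT level rests on 3 UMIs. Chil3, a chitinase-like protein, Ceacam10 and Arg2, a mitochondrial arginase, had -0.09, -0.24 and -0.26. Lyz2, lysozyme, was at 4573 CPM in Plaur KO members and 2954 CPM in WT members, and its log2 ratio of 0.63 became 0.02 without the barcodes that hold monocyte genes.

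Mature neutrophil genes were nearly level as a list, with a median of 0.09. Of 33, 21 were higher in Plaur KO members, against 52.6% of all genes with at least 20 UMIs. Some members of the list nevertheless differed by more than their counting error. Lrg1, a secreted glycoprotein of neutrophil granules, was at 406 CPM in Plaur KO members and 204 CPM in WT members, a log2 ratio of 0.99, and was found in 49.3% of Plaur KO members and 27.5% of WT members. Pglyrp1, a bactericidal granule protein, was at 1323 CPM in Plaur KO members and 898 CPM in WT members. Ly6g was at 76.4 CPM in Plaur KO members and 39.2 CPM in WT members. Without the barcodes that hold monocyte genes these 3 had log2 ratios of 1.18, 0.67 and 1.08. Clec4d, a C-type lectin, had -0.30. Stefin and whey acidic protein genes were higher in 10 of 11 cases, with a median of 0.55, and in 8 of 9 with a median of 0.42 without those barcodes; Stfa2 had 1.20 and Stfa1, the exception, -0.26.

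Migration receptors and integrins showed no common direction, with medians of -0.08 over 15 genes and 0.06 over 22 genes. Cxcr4 was at 514 CPM in Plaur KO members and 700 CPM in WT members, and Cd44, the hyaluronan receptor, at 2200.3 CPM in Plaur KO members and 3035 CPM in WT members. Ptafr, the receptor of platelet-activating factor, had a log2 ratio of -0.44. Ccr2, the receptor for Ccl2, had 1.92 and is one of the 8 genes that pick out the barcodes with monocyte genes. Interleukin-1 and G-CSF pathway genes were split evenly, 15 of 30 in each direction; Irak2, a kinase of interleukin-1 receptor signalling, had -0.83, and Casp1, the caspase that cleaves interleukin-1 beta, 1.23. Of 23 survival and apoptosis genes, 15 were lower, against 47.4% of all genes with at least 20 UMIs. Bcl2l1, which encodes the antiapoptotic Bcl-xL, was at 74.6 CPM in Plaur KO members and 28.7 CPM in WT members, whereas Pmaip1, a proapoptotic BH3-only gene, was at 45.2 CPM in Plaur KO members and 83.6 CPM in WT members, and Bcl2a1b at 110 CPM in Plaur KO members and 196 CPM in WT members. Glucocorticoid and metallothionein genes had a median of -0.08, while Tsc22d3, the glucocorticoid-induced leucine zipper, was at 326 CPM in Plaur KO members and 153 CPM in WT members, a log2 ratio of 1.09 [0.81, 1.39]. Glycolysis and hypoxia genes had a median of 0.06, with Hif1a, the hypoxia-inducible factor, at 575 CPM in Plaur KO members and 400 CPM in WT members and Pfkp, a phosphofructokinase, at 80.3 CPM in Plaur KO members and 128 CPM in WT members. For NADPH oxidase and antimicrobial genes the median was 0.23, and 0.08 without the barcodes that hold monocyte genes; Prdx5, a peroxidase, had 0.59.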

How the data were processed

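Barcode matrices of 2 gene libraries and their antibody libraries, 1 of each per genotype, were analysed. The deposited values are UMI counts per gene and per antibody tag in each barcode, not normalised. Cell Ranger 7.0.0 is named per the file headers, and Cell Ranger 7.0.0 and 7.1.0 with mm10 per the submitters' processing notes. Deposited gene UMIs totalled 47442215 in the Plaur KO library and 42913843 in the WT library, of which members held 2277895 and 765299.

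Barcodes with UMIs in 200 or more genes, and no more than 10% of UMIs mitochondrial, were kept. Doublets were called with Scrublet (scanpy 1.11.5, expected share 8%), which called 4.55% of Plaur KO and 2.91% of WT barcodes, and were left in. UMIs were summed over the cells of a class and divided by that class's total (CPM). Log2 ratios carry exact conditional binomial intervals, shares Clopper-Pearson and levels Poisson intervals, all at 95% and for counting error only, since PCR copies and mice are not replicated. B cells had at least 2 Cd79a and 1 Cd79b UMIs. Calculations used Python 3.11.15, NumPy 2.4.6, SciPy 1.17.1 and pandas 2.3.3; edgeR 4.0.16 and DESeq2 1.42.0 gave scaling factors only, as alternatives, and the ratio and interval code was tested on simulated data.

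Named genes are the 12 highest and 12 lowest by the interval bound nearest 0 among genes with at least 100 UMIs, leaving out the genes of the rule, other cell types' markers, Xist, Tsix and Y-linked genes, haemoglobin genes, receptor segments, and ribosomal and mitochondrial genes. To these come up to 3 genes at each end of a described list with at least 50 UMIs, and for comparisons between classes the 10 highest and 10 lowest by the smaller ratio of the 2 libraries. Some genes that the rule names are not reported here. Ifitm3, Ifi27l2a, Isg15, Ly6g by class, Mmp8, Cxcr4 and the genes by Retnlg range were added after their values were seen. The members, gene lists and comparisons were chosen with earlier results of these data known. List medians use genes with at least 20 UMIs. Alternatives varied the filters, the Retnlg and S100 limits, doublets, depth, scaling and antibody summary; leaving out barcodes with genes of monocytes or of any other lineage was added after seeing the data.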

Additional observations from a re-analysis of the deposited data

Results flagged for a closer look

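5 differences between genotypes ran one way in the members and the opposite way in another neutrophil class, with neither counting interval holding 0; with 1 library per genotype the difference between classes was not tested. Crip1, a LIM domain gene, had a log2 ratio of Plaur KO over WT of 1.66 in members and -0.63 in Retnlg-low cells, and Irf8, a myeloid transcription factor, had 2.46 in members and -0.33 in interferon-high cells. Both intervals in members held 0 without the barcodes that hold monocyte genes, where the ratios were 0.42 and 0.67. Ltf, lactoferrin, had 2.49 in members, -1.90 in F3-programme cells and -1.79 in interferon-high cells, and Ngp, neutrophilic granule protein, had 1.36 in members and -1.45 in F3-programme cells. In members 96.0% of the Plaur KO UMIs of Ltf and 85.9% of those of Ngp lay in 5 cells.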

How the results depend on the processing

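No paired analysis was possible because each genotype is 1 library and no replicate could be left out. The members' share kept its direction under all settings run. Its log2 ratio of Plaur KO over WT was 1.20 of filtered barcodes and 0.69 of the gate; it was 1.00 and 0.49 with a Retnlg minimum of 3 UMIs, 1.48 and 0.97 with 10, and 1.52 and 0.99 with cells thinned to 1000 UMIs. The 63 genes higher by 2-fold became 24 without barcodes with monocyte genes, 27 without those with genes of any other lineage, 245 without the 5 cells with most UMIs of each gene and 430 at 20 or more UMIs, where 195 were lower. The share of higher calls, 72.4%, became 52.2%, 54.0% and 93.2% under the first 3 of these; leaving out 5 cells takes a larger part of the smaller WT group and moved the median of all genes by its construction, to 0.15. It also moved the glucocorticoid list's median to 0.47. The monocyte list's median, which the choice of barcodes fixes in part, became 4.52 at 5% S100 RNA, 2.79 without the 1% deepest cells, 3.53 without the 5 cells, and -0.14 and -0.068 without barcodes of monocytes and of any other lineage.

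Between classes, the 6 genes higher than in Retnlg-low cells became 10 at a Retnlg minimum of 3, 0 at 5% S100 RNA and 3 without monocyte genes. The 1 gene higher than in F3-programme cells became 3 at a Retnlg minimum of 10 and 0 at 5% S100 RNA, and the 71 lower became 110 without monocyte genes.

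Relative to B cells, CD11b had a log2 ratio of -0.15 between genotypes. It became -0.25 without doublet calls, -0.24 without monocyte genes, -0.20 without any other lineage, -0.52 by medians, -0.27 by centred log-ratios and 0.34 after thinning, whose members include cells with F3 or interferon UMIs at full depth. For Ly-6C the ratio of -0.34 became -0.40 at 5% S100 RNA, -0.50 without monocyte genes or any other lineage, -0.21 by centred log-ratios, 0.59 by raw means and 0.10 after thinning. CD14, at 0.19, became 0.070 after thinning, -0.080 by raw means and -0.58 by medians. CCR3, at -0.25, became -0.54 after thinning, 0.0047 at a Retnlg minimum of 10, 0 by medians and 0.13 by centred log-ratios.

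Of 89 named genes, these changed sign. Without monocyte genes Plcb1 became -1.55, Ltf -0.59, Ngp -0.67, Ccr2 -0.74 and Cybb, an oxidase subunit, -0.44. Without any other lineage Irf8 became -0.16, Crip1 -0.25, S100a10 -0.10, Ltf -0.65, Ngp -0.84, Lyz2 -0.0019, Ccr2 -0.80 and Cybb -0.35. Tubb5 became 0.48 at 5% S100 RNA, 0.16 without the 1% deepest cells, 1.26 after thinning and 0.39 without the 5 cells. Cxcl10 became 0.20 with Retnlg ranges weighted alike, Ccl5 -0.48 without doublet calls, and after thinning Ltf became -0.56 and Vegfa 0.18. TMM and DESeq2 scaling changed no sign. Depth per cell is low, so genes under about 20 UMIs were not read.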
